A study of Mus musculus with 12 samples.

Results

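The comparison described here is that of brown adipose tissue from Mcu fl/fl AKO mice with brown adipose tissue from Mcu fl/fl mice. It takes 6 of the 12 RNA sequencing libraries of the study, 3 per genotype, and every gene with enough counts to be tested. The libraries were chosen by tissue and genotype, not by any measured value. Both groups carry floxed Mcu alleles on each chromosome, so the controls differ from AKO in the deletion and in whatever drives it. In AKO animals Mcu was removed from adipose tissue, and the series' design states that the mice of each genotype were fed a high-fat diet. No label names the Cre line or other driver, the floxed exon, or the sex and age of the mice. The libraries are numbered as replicates, and nothing says they come from separate mice. The p-values below therefore measure only the spread between these libraries, which may be technical.

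Mcu encodes the pore of the mitochondrial calcium uniporter, the channel through which calcium enters the mitochondrial matrix along the membrane potential. Micu2 and Micu3 encode calcium-sensing gatekeepers, Smdt1 the small subunit that joins gatekeepers to pore, and Mcub a pore paralogue that lowers conductance. Matrix calcium stimulates several dehydrogenases that feed the respiratory chain. Brown fat is a tissue rich in mitochondria whose adipocytes burn lipid and glucose to make heat through the uncoupling protein Ucp1, under sympathetic and thyroid hormone control.

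The tables held 52550 gene IDs, of which 25989 had a count in at least 1 of the 6 libraries and 14265 passed the filter on low counts. Library totals ran from 15692588 to 16892975 counts. Levels are given as CPM, counts scaled to the library total after TMM scaling, which corrects for differences in library composition, and always in the order controls 1, 2 and 3, then AKO 1, 2 and 3. Markers of brown adipocytes were abundant, as Ucp1 lay between 1923 and 2673 FPKM (CPM per kilobase of gene length), Cidea between 1357 and 1832, and Cox8b between 1609 and 1887. Of the tested genes, 6 lie on chromosome Y, with a median log2 fold change of AKO against control of 0.25. Of these, 3 had an unadjusted p under 0.05 in edgeR's test, as did 13.6% of all genes. The sex of each library was not tested.

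Before any comparison, several libraries stood apart in ways the genotype label does not describe. Skeletal muscle markers took 0.236%, 0.0101% and 0.00794% of counts in the controls and 0.00944%, 2.23% and 0.0728% in AKO. AKO 2 held far more muscle RNA than any other library, and control 1 was second. Cdkn1a, the cell cycle inhibitor p21, measured 479, 36.0 and 426 CPM in the controls and 38.6, 35.4 and 30.7 CPM in AKO. Fkbp5, an immunophilin induced by glucocorticoids, measured 140, 12.6 and 161 CPM in the controls and 12.7, 15.3 and 13.6 CPM in AKO. Controls 1 and 3 were thus high for both transcripts, while control 2 lay at the level of the AKO libraries. Dbp, a clock-controlled transcription factor, showed the mirror image, at 42.2, 120 and 39.9 CPM in the controls and 130, 118 and 114 CPM in AKO. Control 2 was the highest library for mesothelial and epithelial markers (10.9 CPM summed, against 0.378 to 0.867 CPM elsewhere). It was also highest for B lymphocyte markers (13.0 CPM against 1.95 to 6.64 CPM), and both lists are low in counts. Fkbp5, Dbp and these lists were chosen after their values were seen. No label says whether control 2 was handled or collected differently from controls 1 and 3, and whether its label is right was not tested. In Mcu, described below, control 2 lay above all AKO libraries. For Kng1, also described below, control 2 had 2 counts, against 170 to 338 in AKO. List medians above 0.1 in size that moved by over 1.5 times when 1 library was left out are given with and without it.

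**Figure D1:**
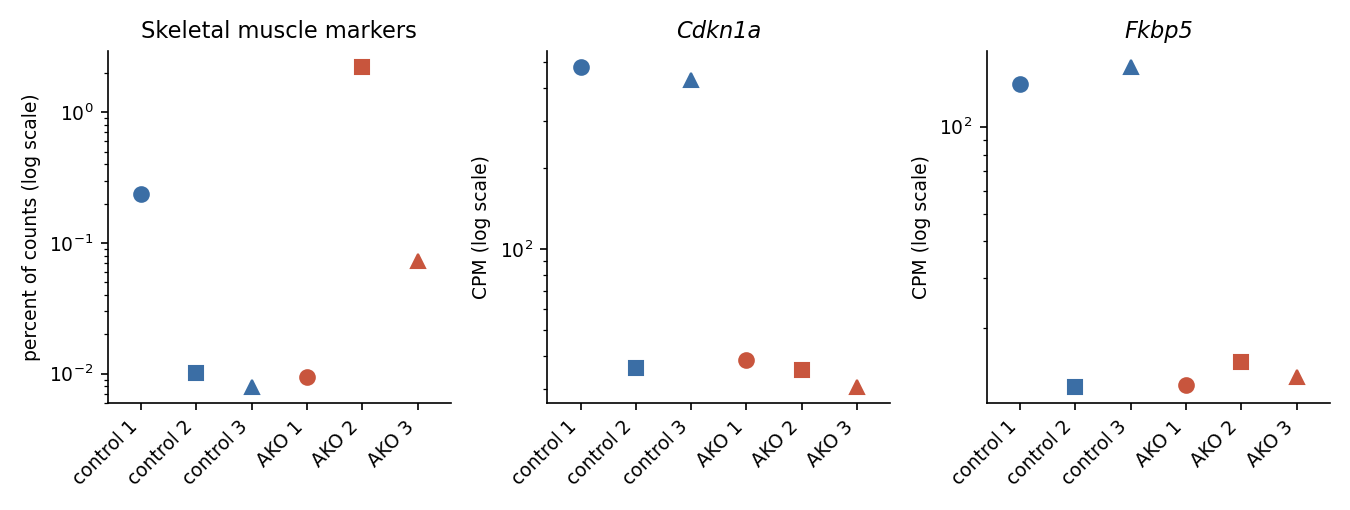
Values in each of the 6 libraries on log axes: the share of counts in skeletal muscle markers (percent, left), Cdkn1a (CPM, middle) and Fkbp5 (CPM, right). Controls are blue and AKO red. AKO 2 holds 2.23% muscle counts, and controls 1 and 3 measure 479 and 426 CPM for Cdkn1a while the other 4 libraries lie between 30.7 and 38.6 CPM.

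Mcu itself (chromosome 10, 59446984 to 59616692, minus strand, mm10) measured 22.6, 24.6 and 20.7 CPM in the controls and 8.12, 12.9 and 7.12 CPM in AKO. Each AKO library lay below each control, and AKO 2 was the highest of the 3 AKO libraries. The AKO mean was 41.5% of the control mean. The log2 fold change of AKO against control was −1.27 (SE 0.222), and edgeR's quasi-likelihood test over all 14265 genes, adjusted by Benjamini-Hochberg, gave an adjusted p of 0.202, above the threshold of 0.05 used throughout. The fit without AKO 2, the library with most muscle RNA, gave −1.57 with an adjusted p of 0.0683. With any other library left out, edgeR's adjusted p ran from 0.103 to 0.552. DESeq2, a second count model, called the gene (adjusted p = 1.57e-05). Because brown fat was measured as whole tissue, a smaller share of cells with the transcript and less transcript per cell cannot be told apart. Reads of exons outside the deleted stretch are counted too.

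None of the 5 partner genes reported here passed the test. Mcur1, a regulator of the uniporter, measured 181, 195 and 193 CPM in the controls and 205, 209 and 238 CPM in AKO, a log2 difference of 0.20 (adjusted p = 0.394). Smdt1 measured 123, 132 and 118 CPM against 124, 120 and 108 CPM. Micu2 overlapped between genotypes at 38.5 to 46.1 CPM over all libraries. Micu3, the gatekeeper best known from nervous tissue and muscle, lay at 5.89 to 9.24 CPM and Mcub at 0.867 to 1.83 CPM. Of the 12 genes for other routes of mitochondrial calcium, 0 passed; the smallest p belonged to Slc8b1, the sodium-calcium exchanger that returns calcium to the cytosol, at 43.5, 39.0 and 49.3 CPM against 35.7, 38.6 and 35.1 CPM (log2 −0.27, adjusted p = 0.346). Among the 11 tested genes for calcium-sensitive dehydrogenases and shuttles, Ogdh of the citric acid cycle was the most abundant (3829 CPM in controls, 3956 CPM in AKO, log2 0.05).

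**Figure D2:**
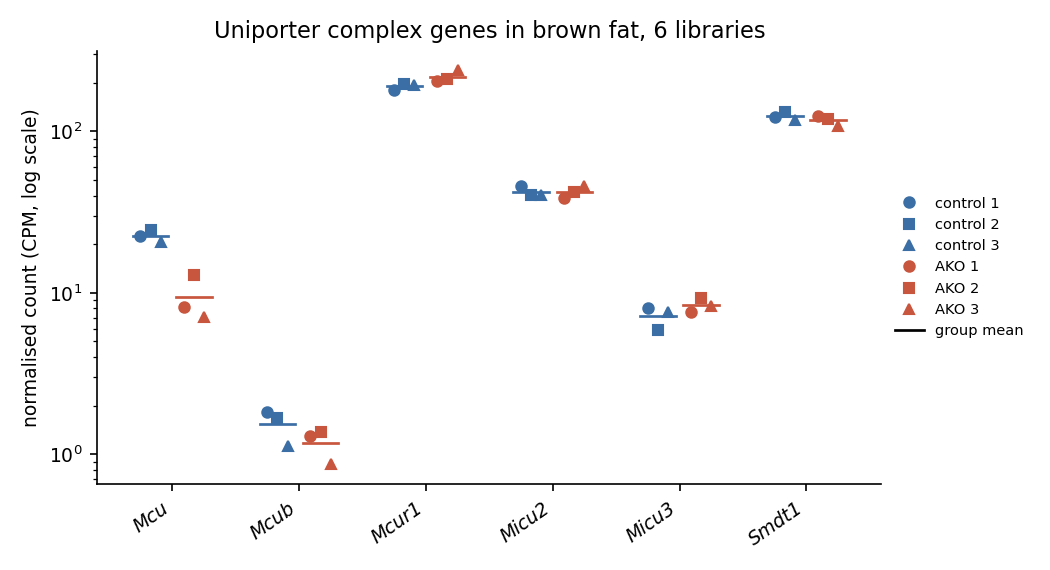
CPM (log axis) of Mcu and 5 other uniporter complex genes in each library; symbols number the replicates and lines are group means. Mcu is the one gene whose AKO libraries (7.12 to 12.9 CPM) lie below all controls (20.7 to 24.6 CPM).

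Over all genes, 11 passed the test (0.0771% of 14265), 7 higher in AKO (0.0491%) and 4 lower (0.028%). The median log2 fold change was 0.01, and 6906 genes had a negative one. Groups did not overlap for 1460 genes in the higher direction (10.2%) and 1400 in the lower (9.81%), and an unadjusted p under 0.05 was reached by 998 genes higher (7%) and 944 lower (6.62%). These shares are the background for the gene lists below. DESeq2 called 261 of 12734 genes (2.05%), among them 9 of the 11. At an adjusted p under 0.1 edgeR's count was 13 (0.0911%), 9 of them higher (0.0631%). Leaving out control 2 raised the calls to 95 of 14588 genes (0.651%), which held all 11 and another 84, whereas without control 1 the count was 2 of 14530 (0.0138%), and 0 genes passed without control 3 or without AKO 3.

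The strongest rise was that of Kng1, which encodes kininogen, the precursor of bradykinin and a secreted protein made mainly by liver. It had 2, 2 and 3 counts in the controls and 338, 170 and 233 counts in AKO. Every AKO library was far above every control, where the transcript was close to absent. The ratio of summed counts was 105.5 (95% interval 50.95 to 263.3, counting error only) and edgeR's log2 fold change was 6.63 (SE 0.35, adjusted p = 0.00284). Its adjusted p rose above 0.05 without AKO 3 (0.0504) and without control 3 (0.0587), and stayed under it when any other library was left out. Kng2, the paralogue beside it, measured 161, 221 and 193 CPM against 217, 171 and 231 CPM. No label says how the authors' counting divided reads between similar copies. Of the other 7 kinin system genes, 3 passed the count filter and 0 passed the test.

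Kng1 lies on the plus strand of chromosome 16 (23057865 to 23082078), in the same stretch as the adiponectin gene Adipoq. The driver of the deletion is in AKO mice alone and its sequence is not given, so transcripts of a construct that carries part of this stretch and transcripts of the endogenous genes cannot be told apart. Among the 9 tested genes of that neighbourhood, Kng1 was the only one called by edgeR, and DESeq2 also called Eif4a2. Eif4a2, a helicase of translation initiation, measured 287, 262 and 246 CPM in the controls and 417, 474 and 423 CPM in AKO, without overlap (log2 0.73, SE 0.096, adjusted p = 0.106). Rfc4, a DNA replication clamp loader, measured 4.05, 4.93 and 5.10 CPM against 6.82, 8.72 and 7.86 CPM (log2 0.73, adjusted p = 0.248). The exons of these 2 genes share 194 bases on opposite strands and no strand setting is given, so their reads cannot be told apart there. Adipoq itself measured 760, 765 and 658 CPM against 845, 864 and 766 CPM (log2 0.18, adjusted p = 0.43).

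A pair of Krüppel-like transcription factors rose, and they are the related TGF-beta-inducible repressors of the family. Klf11 measured 14.3, 14.1 and 14.5 CPM in the controls and 32.6, 32.4 and 31.1 CPM in AKO. The replicates were nearly equal within each group, and the fold change was 2.24 (log2 1.16, SE 0.0776, adjusted p = 0.0074). Klf10 measured 40.6, 37.3 and 42.2 CPM in the controls and 82.2, 87.7 and 68.4 CPM in AKO, again without overlap (log2 0.99, SE 0.111, adjusted p = 0.0485). Both calls were lost when any library other than control 2 was left out, with adjusted p up to 0.118 for Klf11 and 0.292 for Klf10. Of the 14 tested members of the KLF and SP list these were the only calls. The most abundant, Klf9, measured 123, 56.6 and 118 CPM against 90.2, 82.6 and 113 CPM, and Klf15, induced by glucocorticoids, 49.4, 28.0 and 31.4 CPM against 45.8, 33.3 and 57.5 CPM.

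The promoter of Klf11 is shown because this called gene holds an E-box, CACGTG, the hexamer bound by clock activators and other basic helix-loop-helix factors. The window runs from 250 bases before to 50 bases after the RefSeq start (GRCm38.p6, chr12:24651121-24651420, plus strand), 5′ to 3′ with the E-box in capitals.
Klf11: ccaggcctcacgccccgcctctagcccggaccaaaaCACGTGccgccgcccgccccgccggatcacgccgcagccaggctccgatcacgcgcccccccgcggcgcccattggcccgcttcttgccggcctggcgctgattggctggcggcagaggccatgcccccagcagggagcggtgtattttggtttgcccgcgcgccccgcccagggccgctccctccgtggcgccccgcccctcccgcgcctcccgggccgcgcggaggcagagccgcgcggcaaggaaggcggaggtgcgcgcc
The hexamer reads the same on both strands and occurs in 7.15% of the 32851 RefSeq promoters of this length.

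Among the genes that fell, Pth1r encodes the parathyroid hormone receptor, part of a hormone pathway known to drive thermogenic genes in adipocytes. Its position is chromosome 9, 110722085 to 110747145, minus strand. Pth1r measured 49.4, 42.2 and 45.8 CPM in the controls and 21.3, 16.5 and 19.1 CPM in AKO, with a wide gap between the groups. The AKO mean was 41.5% of control (log2 −1.27, SE 0.116, adjusted p = 0.0267). Pth1r shares 95 exon bases on the opposite strand with Myl3, a muscle gene, which reached 48.6 CPM in AKO 2 and 7.71 CPM in control 1. Without AKO 2, the Pth1r log2 fold change was −1.18. Its ligand Pthlh had 26 counts in all 6 libraries, Pth had 0, and of the 4 other tested members of the list none passed.

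Trib1, a pseudokinase scaffold that targets C/EBP-alpha for degradation, measured 101, 107 and 87.0 CPM in the controls and 37.6, 36.7 and 45.8 CPM in AKO. All AKO libraries lay below all controls (log2 −1.29, SE 0.122, adjusted p = 0.027). Its partner ligase gene Cop1 measured 55.6, 49.7 and 56.3 CPM against 51.8, 57.1 and 59.0 CPM. Cebpa, the adipocyte transcription factor that Trib1 acts on, measured 743, 916 and 793 CPM against 1011, 938 and 951 CPM and did not pass (log2 0.24, adjusted p = 0.352). Cebpd, an early adipogenic and inflammatory member of the same family, measured 10.9, 9.02 and 10.7 CPM against 7.12, 7.75 and 5.26 CPM (log2 −0.60, adjusted p = 0.287).

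Rspo4, a secreted R-spondin that strengthens Wnt signalling through Lgr receptors, measured 7.84, 8.42 and 8.75 CPM in the controls and 2.12, 1.95 and 2.72 CPM in AKO. It was low in all AKO libraries, at 27.2% of the control mean (log2 −1.88, SE 0.184, adjusted p = 0.0271). Of the 18 tested R-spondin and Wnt genes it was the only call. Wnt11, a non-canonical Wnt ligand, measured 10.2, 8.0 and 7.87 CPM against 12.8, 12.8 and 11.0 CPM (log2 0.49, adjusted p = 0.297). Lgr4, the R-spondin receptor, measured 14.7, 13.9 and 18.7 CPM against 20.4, 20.1 and 21.8 CPM (log2 0.39, adjusted p = 0.315). The groups did not overlap for either gene, and neither passed.

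Rpl29, a ribosomal protein gene on chromosome 9 (106429454 to 106431568, plus strand), measured 88.3, 89.1 and 96.6 CPM in the controls and 48.3, 44.8 and 40.6 CPM in AKO (log2 −1.04, SE 0.0921, adjusted p = 0.0267). The other 4 genes that rose are processed pseudogenes, and 1 of them is a near copy of Rpl29. Gm8210, on chromosome 1, matches a transcript of Rpl29 at 99.38% of 483 aligned bases and had 0, 3 and 1 counts in the controls and 76, 89 and 49 in AKO. The rise of Gm8210 was 4.43 CPM in AKO against 0.0811 CPM, and the drop of Rpl29 was to 44.6 from 91.3 CPM, so the 2 movements were not equal. Reads from the pair cannot be assigned with certainty. Tma7-ps (3.86, 3.85 and 4.15 CPM against 12.5, 11.8 and 10.8 CPM) matches Tma7 at 98.97% of 195 bases, and Tma7 measured 54.0, 56.9 and 51.7 CPM against 55.1, 54.6 and 51.0 CPM. Gm11868 (1, 1 and 3 counts against 40, 28 and 40) matches Cyb5r4 at 97.97% of 1478 bases, and Cyb5r4 differed by a log2 of 0.02. The parent genes Rpl29, Tma7 and Cyb5r4 all lie on chromosome 9, which held 2 of the 11 calls among 796 tested genes. Gm7049 had 1, 1 and 1 counts in the controls and 26, 30 and 17 in AKO. Gm7049 was not aligned to any parent. The counts of all 4 pseudogenes are reported as uncertain.

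**Figure D3:**
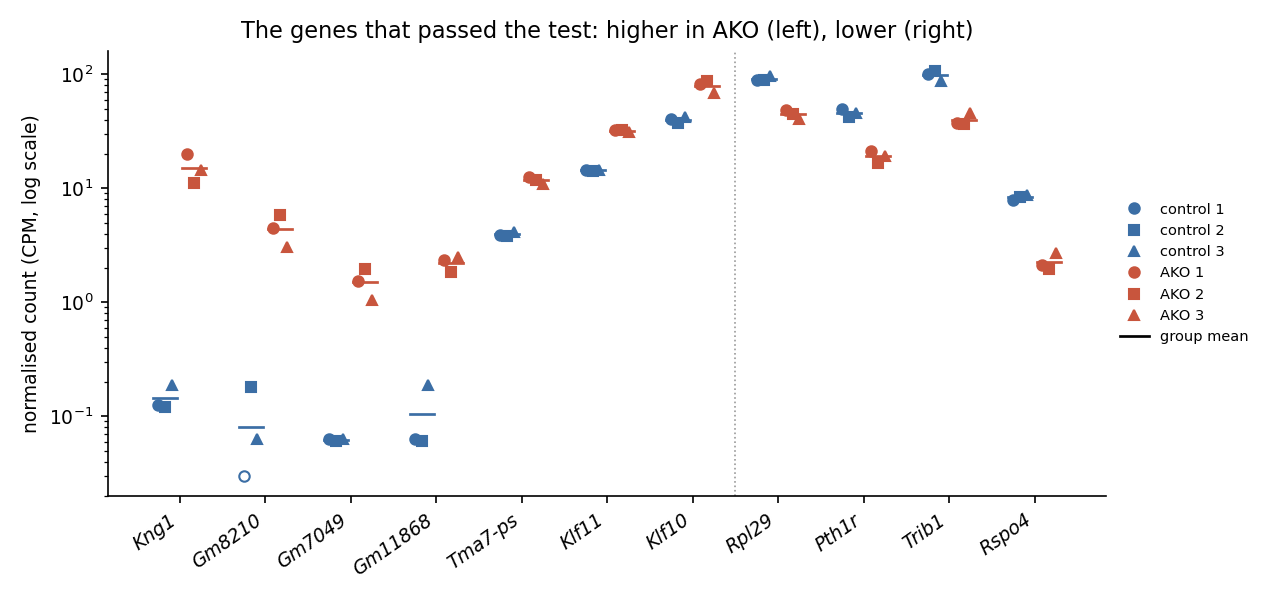
CPM (log axis) of the 11 genes that passed edgeR's test, by library; lines are group means and the open circle marks a library with 0 counts. Controls and AKO do not overlap for any of the 11, and Kng1, Gm8210, Gm7049 and Gm11868 have at most 3 counts in every control.

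The called genes kept their direction in each alternative in which they could be fitted, but the calls leaned on single libraries. Without AKO 1, AKO 2 or control 1, Kng1 was the only one of the 11 still called, and without control 2 all 11 were. The closest other genes are given next as values, since they did not pass.

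On the higher side the smallest p-values after the calls belonged to Tfrc and Nr1d2. Tfrc, the transferrin receptor that imports iron, measured 16.1, 14.2 and 18.9 CPM in the controls and 48.5, 34.4 and 38.1 CPM in AKO. Its AKO mean was 246% of control (log2 1.3, SE 0.161, adjusted p = 0.0853). Tob1, an antiproliferative factor, Nfib, a transcription factor, and Cecr2, a chromatin remodeller, had log2 differences of 0.72, 0.72 and 0.80. Pik3cb, a catalytic subunit of phosphoinositide 3-kinase, had 0.55; Ptger3, a prostaglandin E2 receptor that lowers cAMP, 0.46; and Btc, an epidermal growth factor receptor ligand, 0.99. Cyp4v3, a fatty acid hydroxylase, had 0.65. Adjusted p-values of these 7 ran from 0.103 to 0.194. All had AKO libraries above all controls, which the rule that chose them required.

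On the lower side, Grrp1 measured 20.4, 17.0 and 18.6 CPM in the controls and 10.4, 9.64 and 10.7 CPM in AKO (log2 −0.86, adjusted p = 0.109). Sema7a, a membrane-anchored semaphorin, measured 71.5, 80.7 and 82.4 CPM against 51.8, 46.2 and 42.3 CPM (log2 −0.74, adjusted p = 0.125). Prr13 had a log2 difference of −0.71; Plk2, a polo-like kinase, −0.81; Gja4, the connexin of arterial endothelium, −0.95; and Prkcd, protein kinase C delta, −0.64. The other 4 of these 10 genes, Ier5, Il4ra, Ccl7 and Icam1, belong to stress and immune lists and are described with them. DESeq2 called all 20 genes of both sides (2.05% of all genes), but they were picked by small p in these same libraries. That choice also required groups without overlap.

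No clock gene was called by edgeR. Of 19 clock genes, 18 were tested, 13 with a positive log2 fold change, and the median was 0.30 against 0.01 over all genes. An unadjusted p under 0.05 was reached by 7 in the higher and 2 in the lower direction, and DESeq2 called 5, all higher (0.997% of all genes). Nr1d2, a heme-binding repressor also called Rev-erb beta, measured 50.9, 56.6 and 45.1 CPM in the controls and 87.2, 91.2 and 102 CPM in AKO (log2 0.88, SE 0.11, adjusted p = 0.0872). It passed edgeR's test without control 2 (adjusted p = 0.0311), but not with any other library left out (0.193 to 0.383).

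Ciart, a repressor of the clock activators, measured 8.53, 9.14 and 9.19 CPM in the controls and 14.5, 13.7 and 18.9 CPM in AKO (log2 0.81, adjusted p = 0.215). Per3 measured 49.1, 70.0 and 49.1 CPM against 112, 83.1 and 112 CPM (log2 0.86, adjusted p = 0.225). Per2 measured 49.7, 38.5 and 50.5 CPM against 77.1, 61.7 and 70.8 CPM (log2 0.60, adjusted p = 0.243). In none of the 3 did the groups overlap. Nr1d1, the most abundant member, measured 247, 337 and 181 CPM against 312, 336 and 316 CPM, and control 2 sat among the AKO libraries. Arntl, which encodes the activator BMAL1 and is repressed by Rev-erb proteins, was added after its values were seen and measured 6.19, 2.1 and 3.90 CPM against 0.823, 1.43 and 1.92 CPM (log2 −1.54, adjusted p = 0.281). No label gives the time of day of tissue collection, and its part in these values was not tested.

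Ciart and Per3 are shown because their promoters hold repeated clock motifs, the E-box CACGTG in Ciart (chr3:95882179-95882478, minus strand) and the D-box TTATGTAA in Per3 (chr4:151044616-151044915, minus strand). Both windows are RefSeq promoters of GRCm38.p6 with the motifs in capitals, and both strands were searched.
Ciart: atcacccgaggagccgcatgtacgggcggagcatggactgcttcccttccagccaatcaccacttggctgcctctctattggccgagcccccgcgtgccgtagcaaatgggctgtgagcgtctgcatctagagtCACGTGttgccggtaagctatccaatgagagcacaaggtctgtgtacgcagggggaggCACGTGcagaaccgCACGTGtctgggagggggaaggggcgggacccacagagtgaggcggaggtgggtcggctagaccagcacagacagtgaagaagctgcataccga
Per3: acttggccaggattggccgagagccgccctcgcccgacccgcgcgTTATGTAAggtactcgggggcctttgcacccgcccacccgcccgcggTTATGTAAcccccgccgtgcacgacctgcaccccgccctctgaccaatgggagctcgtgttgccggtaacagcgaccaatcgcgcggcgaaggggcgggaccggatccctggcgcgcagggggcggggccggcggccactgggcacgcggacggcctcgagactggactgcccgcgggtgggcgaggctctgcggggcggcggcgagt
The Ciart window holds 3 copies of the E-box and the Per3 window 2 copies of the D-box. A clock gene was counted if any of its promoters held the motif, whereas the percentages count single promoters, so the 2 are not like measures. Among the 16 clock genes with a promoter in the table, the E-box was found in 5 (Bhlhe41, Ciart, Cry1, Per1 and Tef), against 7.15% of all promoters. Of these, Bhlhe41 measured 19.97, 28.4 and 16.4 CPM against 30.6, 36.5 and 33.7 CPM, without overlap, whereas Per1 overlapped at 121, 115 and 125 CPM against 153, 126 and 107 CPM. The D-box, bound by Dbp, Tef, Hlf and the repressor Nfil3, occurred in Per3 alone among them and in 0.938% of all promoters. Nfil3 measured 21.6, 11.1 and 25.4 CPM in the controls and 11.8, 12.6 and 12.1 CPM in AKO, high in controls 1 and 3 as Fkbp5 was.

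Thermogenic genes showed small differences, mostly positive. All 28 members were tested, 21 were positive, the median log2 fold change was 0.15, and 10 had an unadjusted p under 0.05 in the higher and 2 in the lower direction. The median was 0.26 without AKO 2 and 0.06 without AKO 3, where 5 members were higher at that p. DESeq2 called 5 members, all higher (0.997% of all genes were called higher). Ucp1, the most abundant member, measured 3783, 3146 and 3273 CPM in the controls and 3746, 3344 and 4372 CPM in AKO, which overlap (log2 0.17, SE 0.118, adjusted p = 0.545). Thrb, a thyroid hormone receptor, measured 15.8, 19.8 and 16.4 CPM against 27.1, 22.2 and 28.9 CPM (log2 0.59, adjusted p = 0.247). Ebf2, which sets brown adipocyte identity, measured 32.7, 39.9 and 33.9 CPM against 50.9, 43.8 and 63.6 CPM (log2 0.57, adjusted p = 0.264). Ppargc1a, the coactivator of mitochondrial biogenesis, measured 25.2, 23.4 and 22.5 CPM against 34.3, 28.8 and 47.2 CPM (log2 0.63, adjusted p = 0.27). Slc29a1, an adenosine transporter, had a log2 difference of 0.74. For these 4 the groups did not overlap, with AKO 2, the library with most muscle RNA, the lowest AKO library in each. The part of muscle RNA in that order was not tested.

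Among metabolic nuclear receptors the smallest p belonged to Nr3c1, the glucocorticoid receptor. It measured 46.3, 60.0 and 46.3 CPM in the controls and 82.4, 77.9 and 101 CPM in AKO (log2 0.78, SE 0.145, adjusted p = 0.215). Control 2 was the highest control and still lay below all AKO libraries. Pparg, the adipocyte master regulator, had group means of 313 and 322 CPM. DESeq2 called 3 of the 20 tested receptors, all higher (0.997% of all genes were called higher).

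Respiratory chain transcripts were close to equal. The median log2 fold change was 0.03 over 36 nuclear genes of complex I and 0.02 over 38 of complexes II to V, with 0 members of either list at an unadjusted p under 0.05. Atp5b, the catalytic ATP synthase subunit, had group means of 7521 and 7470 CPM. The 13 protein-coding genes of the mitochondrial genome had a median of 0.15 and took 14.5% to 17.4% of all counts. mt-Co1, a cytochrome oxidase subunit, measured 62065, 61298 and 63444 CPM in the controls and 65862, 74669 and 69356 CPM in AKO (log2 0.17, adjusted p = 0.331), the highest value being that of AKO 2. The median of the mitochondrial genome was 0.02 without control 2 and 0.06 without AKO 3.

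Lipid genes gave no call by edgeR, while DESeq2 called 2 higher and 1 lower in glycerolipid synthesis and 1 lower in de novo lipogenesis, which was Me1. Over all genes DESeq2 called 0.997% higher and 1.05% lower. Fatty acid oxidation (24 genes) had a median of 0.06 with 4 members at an unadjusted p under 0.05, all higher, and a median of −0.01 without AKO 3. Lipolysis (11 genes) had a median of 0.01 and glycerolipid synthesis (19) 0.03. In the latter, Agpat2, an acyltransferase of triglyceride assembly, measured 766, 910 and 695 CPM against 1186, 1015 and 1048 CPM (log2 0.45, adjusted p = 0.264). De novo lipogenesis (16) had a median of −0.07, which was 0.05 without control 2. Me1, the malic enzyme that supplies NADPH, measured 330, 335 and 393 CPM against 272, 260 and 220 CPM (log2 −0.49, adjusted p = 0.247). Scd1, the most abundant lipogenic transcript, measured 32907, 26995 and 36964 CPM against 40648, 35946 and 32505 CPM, which overlap.

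Glucose use (23 tested genes) had a median of −0.03, but 6 members had an unadjusted p under 0.05 and all 6 were lower. They include enzymes of the glycolytic chain. Pfkl, the liver form of phosphofructokinase, measured 1333, 1115 and 1349 CPM in the controls and 902, 840 and 1039 CPM in AKO (log2 −0.45, SE 0.114, adjusted p = 0.258), and DESeq2 called it. Gpi1 measured 918, 974 and 1016 CPM against 825, 816 and 691 CPM. Eno1, the most abundant member, measured 2893, 3641 and 3262 CPM against 2861, 2567 and 2405 CPM (log2 −0.32, adjusted p = 0.318). Groups did not overlap for these 3 enzymes.

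Insulin signalling (18 genes) had a median of 0.15, with 6 members at an unadjusted p under 0.05 higher and 2 lower. Irs2, an insulin receptor substrate, measured 30.3, 34.99 and 23.4 CPM in the controls and 57.3, 50.8 and 40.1 CPM in AKO (log2 0.74, adjusted p = 0.255). Pik3cb measured 17.6, 17.3 and 18.3 CPM against 25.1, 27.2 and 25.4 CPM (log2 0.55, SE 0.0826, adjusted p = 0.153), with tight replicates. Pde3b, the phosphodiesterase by which insulin lowers cAMP, measured 169, 141 and 125 CPM against 199, 187 and 240 CPM (log2 0.53, adjusted p = 0.27). Igfbp3, a binding protein of insulin-like growth factors, measured 20.7, 19.7 and 22.1 CPM against 13.4, 16.3 and 10.9 CPM (log2 −0.63, adjusted p = 0.255).

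The adrenergic and cAMP list (25 tested of 26) had a median of 0.15, with 6 higher and 3 lower at an unadjusted p under 0.05. Without control 2 the median was 0.28. Its adenylyl cyclases differed in sign. Adcy9 measured 24.7, 29.6 and 20.6 CPM in the controls and 39.4, 34.7 and 39.8 CPM in AKO (log2 0.61, adjusted p = 0.247). Adcy4 measured 82.2, 86.5 and 98.0 CPM against 56.3, 69.1 and 50.1 CPM (log2 −0.60, adjusted p = 0.243). Adrb3, the receptor through which noradrenaline acts on brown adipocytes, measured 563, 485 and 345 CPM against 437, 477 and 337 CPM and overlapped.

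**Figure D4:**
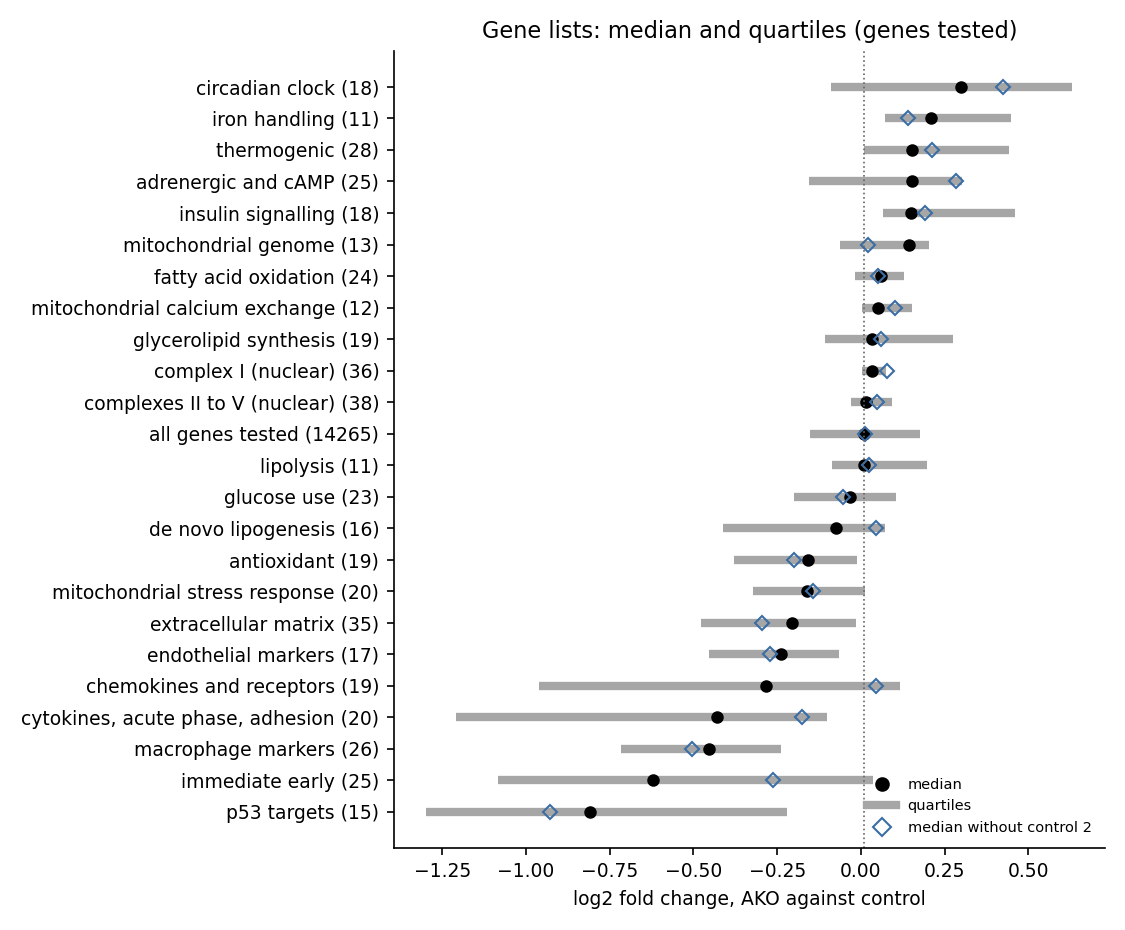
Median (point) and quartiles (bar) of the log2 fold change of AKO against control for gene lists and all tested genes, with the median without control 2 as open diamonds and the number of genes in brackets. Of the lists drawn, the p53 targets have the lowest median (−0.81) and the clock genes the highest (0.30); the chemokine median moves from −0.28 to 0.05 without control 2.

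Immediate early genes, the fast stress-induced transcription factors and feedback regulators, had a median of −0.62 over 25 members, 17 of them negative. An unadjusted p under 0.05 was reached by 9, all lower, and DESeq2 called 6 (1.05% of all genes were called lower). Ier5 measured 31.4, 32.9 and 38.9 CPM in the controls and 16.2, 19.2 and 12.2 CPM in AKO (log2 −1.12, SE 0.173, adjusted p = 0.171). Socs3, which stops cytokine receptor signalling, measured 8.22, 10.3 and 13.5 CPM against 3.35, 4.75 and 3.03 CPM (log2 −1.52, adjusted p = 0.194). Btg2, an antiproliferative gene, measured 49.2, 55.7 and 53.7 CPM against 31.2, 31.4 and 19.7 CPM, and Fosl2, an AP-1 subunit, had a log2 difference of −0.66. In these 4 all AKO libraries were below all controls. The list as a whole leaned on control 2, since its median was −0.26 without that library. Without control 1, 14 members were lower at an unadjusted p under 0.05. Fos, the classical member, reached 19.1 CPM in control 2 against 4.11 and 6.61 CPM in the other controls and 3.76 to 5.40 CPM in AKO. Jun, the most abundant member, went the other way, at 64.0, 152 and 68.0 CPM against 145, 146 and 92.8 CPM.

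Cytokine, acute phase and adhesion genes had a median of −0.43 over 20 tested of 29, with 17 negative and 7 at an unadjusted p under 0.05, all lower. Without control 2 the median was −0.18, and without control 1 the number of such members was 11. Il4ra, the receptor chain shared by interleukins 4 and 13, measured 42.7, 43.5 and 63.3 CPM in the controls and 23.0, 24.5 and 17.9 CPM in AKO (log2 −1.19, SE 0.189, adjusted p = 0.171). Icam1, the leukocyte adhesion molecule, measured 25.1, 37.1 and 27.1 CPM against 10.5, 14.9 and 8.61 CPM (log2 −1.39, SE 0.233, adjusted p = 0.194). Csf1, the macrophage growth factor, measured 33.7, 56.7 and 83.8 CPM against 21.4, 29.6 and 21.7 CPM. The groups were separate for all 3. Lcn2, an acute phase lipocalin, was carried by 1 library, with 27.4 CPM in control 3 against 2.78 and 1.86 CPM in the other controls and 0.391 to 1.36 CPM in AKO. Hp, haptoglobin, the most abundant member, measured 948, 1040 and 1698 CPM against 807, 746 and 717 CPM (log2 −0.70, adjusted p = 0.287).

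Of 29 chemokines and receptors 19 were tested, the median was −0.28, and 6 were lower and 2 higher at an unadjusted p under 0.05. Without control 2 the median was 0.05. Ccl7, a monocyte attractant, measured 1.39, 5.17 and 7.30 CPM in the controls and 0.235, 0.260 and 0.248 CPM in AKO (log2 −4.18, SE 0.681, adjusted p = 0.194). With 1 library left out its adjusted p ran from 0.0259, without control 1, to 0.515. Ccl2, its neighbour in the chemokine cluster, measured 1.96, 19.1 and 16.4 CPM against 1.00, 1.95 and 0.991 CPM. Control 1 was the lowest control for both, well above all AKO libraries for Ccl7 and level with AKO 2 for Ccl2. Ccl6 (26.2, 11.1 and 24.6 CPM against 6.59, 8.98 and 9.53 CPM) and Ccl9 (19.7, 8.66 and 30.2 CPM against 4.71, 7.16 and 8.42 CPM) were high in controls 1 and 3. Cxcl12, the most abundant chemokine, measured 171, 188 and 185 CPM against 197, 210 and 190 CPM.

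Targets of p53, the DNA damage response factor, had a median of −0.81 over 15 tested of 16, with 13 negative and 8 at an unadjusted p under 0.05, all lower. DESeq2 called 5 lower (1.05% of all genes were called lower). The list took 0.135%, 0.0782% and 0.128% of counts in the controls and 0.076%, 0.0773% and 0.0743% in AKO. Controls 1 and 3 were high and control 2 lay just above the AKO libraries. In CPM the list summed to 1343, 763 and 1267 against 755, 810 and 751, with control 2 inside the AKO range. Most of the excess in controls 1 and 3 was Cdkn1a, whose values are given above. Gtse1, a p53-regulated microtubule protein, measured 10.7, 1.5 and 9.31 CPM against 0.941, 0.781 and 1.05 CPM (log2 −2.94, adjusted p = 0.247). Bax, a pore-former of the mitochondrial outer membrane in apoptosis, measured 25.3, 11.7 and 26.4 CPM against 8.94, 7.16 and 7.99 CPM (log2 −1.39, adjusted p = 0.234). Bbc3, the apoptosis activator PUMA, measured 21.2, 15.4 and 19.01 CPM against 11.4, 10.1 and 10.3 CPM (log2 −0.81, adjusted p = 0.205). Tnfrsf10b, a death receptor, measured 14.4, 14.4 and 17.9 CPM against 10.9, 8.72 and 8.11 CPM, with control 2 level with control 1. Without control 2, Cdkn1a, Gtse1, Bax and Bbc3 passed edgeR's test (adjusted p = 0.000576, 0.00811, 0.018 and 0.0455). With control 2 in the fit they did not, so these calls rest on whether that 1 library is kept.

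**Figure D5:**
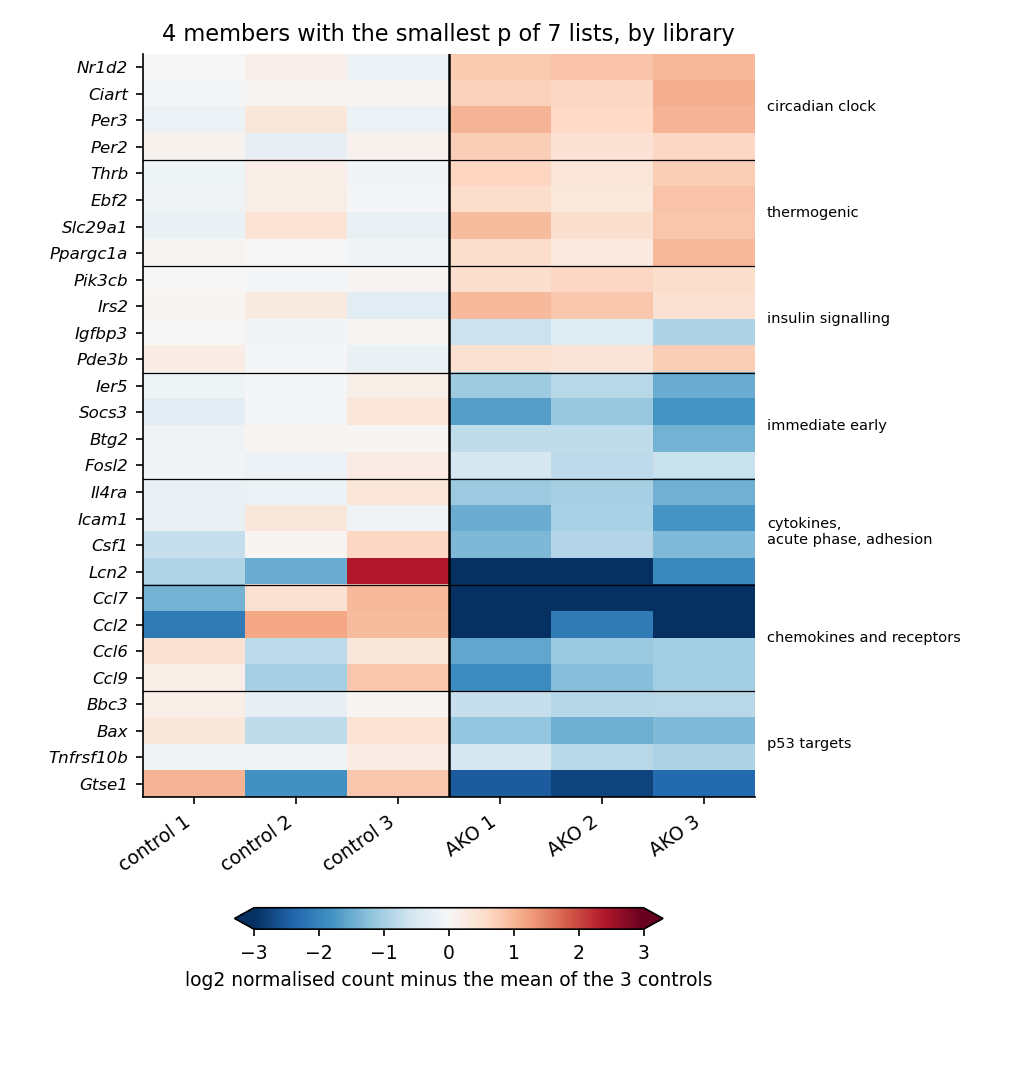
Heat map of log2 CPM minus the mean of the 3 controls for the 4 members with the smallest p in each of 7 lists, with libraries as columns (colour scale from −3 to 3, blue below and red above the control mean). Clock and thermogenic members are red in all AKO libraries; Gtse1 is low in control 2 and Ccl7 and Ccl2 in control 1.

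Macrophage markers took 0.0661%, 0.0545% and 0.0654% of counts in the controls and 0.0437%, 0.0465% and 0.0498% in AKO. All AKO libraries lay below all controls. The median log2 fold change was −0.45 over 26 tested of 27, with 23 negative and 9 at an unadjusted p under 0.05, all lower. That number was 5 without AKO 1 and 14 without control 2. Cd14, the endotoxin co-receptor, measured 10.2, 9.50 and 12.6 CPM in the controls and 5.71, 5.34 and 6.25 CPM in AKO (log2 −0.90, SE 0.163, adjusted p = 0.214). Itgam, the integrin CD11b, measured 2.53, 1.80 and 2.71 CPM against 0.941, 1.17 and 0.929 CPM (log2 −1.21, adjusted p = 0.225). C1qa and C1qb, complement subunits made by resident macrophages, had log2 differences of −0.52 and −0.60. Cd74, an antigen presentation gene and the most abundant member, measured 125, 131 and 104 CPM against 129, 129 and 119 CPM. Among the controls the macrophage share was lowest in control 2. The chemokine list took 0.0334%, 0.0411% and 0.0382% of counts in the controls, highest in control 2. For the cytokine list it was 0.131%, 0.156% and 0.218%, highest in control 3. The part of the macrophage share in the cytokine and chemokine values was not tested.

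Endothelial and matrix genes lay in the same direction. Endothelial markers (17) had a median of −0.24, with 7 lower and 2 higher at an unadjusted p under 0.05, and 4 lower without AKO 3. Sox18, a vascular transcription factor, measured 65.0, 68.9 and 78.2 CPM in the controls and 49.1, 48.8 and 41.0 CPM in AKO (log2 −0.61, SE 0.108, adjusted p = 0.205). Cldn5, a tight junction protein, measured 116, 132 and 95.4 CPM against 82.3, 68.2 and 42.4 CPM. Vwf, the von Willebrand factor, was opposite in sign at 37.0, 30.1 and 30.2 CPM against 51.9, 45.4 and 46.2 CPM (log2 0.56, adjusted p = 0.223). Cdh5, the most abundant marker, overlapped at 368, 450 and 454 CPM against 436, 424 and 374 CPM. Matrix genes (35) had a median of −0.21, with 11 lower and 0 higher at an unadjusted p under 0.05. The number lower was 3 without AKO 3, 7 without AKO 1 or control 3 and 16 without control 2. The basement membrane chains Col4a1 (858, 755 and 1244 CPM against 613, 619 and 610 CPM) and Col4a2 (771, 692 and 1063 CPM against 540, 537 and 559 CPM) were nearly constant in AKO and highest in control 3. Thbs1, a matricellular thrombospondin, reached 116 CPM in control 3 against 6.01 to 22.6 CPM in the other 5 libraries.

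Amino acid transport showed a pair that works as 1 unit. Slc3a2 and Slc7a5 encode the heavy and light chains of the LAT1 carrier of large neutral amino acids. Slc3a2 measured 96.3, 65.5 and 101 CPM in the controls and 51.8, 56.6 and 46.6 CPM in AKO (log2 −0.76, adjusted p = 0.243). Slc7a5 measured 1.58, 3.19 and 6.17 CPM against 0.941, 0.911 and 1.05 CPM (log2 −1.90, adjusted p = 0.263). Without control 2, Slc3a2 passed edgeR's test (adjusted p = 0.03), but not with any other library left out. Branched-chain amino acid genes (21 tested) had a median of −0.015, with 1 higher and 3 lower at an unadjusted p under 0.05. The 20 tested genes of the mitochondrial stress response had a median of −0.16 and 2 at an unadjusted p under 0.05, both lower. Without control 3 the median was −0.05. Atf5, a transcription factor of that response, measured 198, 193 and 260 CPM against 142, 161 and 152 CPM (log2 −0.52, adjusted p = 0.262).

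Iron genes (11 tested of 13) had a median of 0.21, with 3 higher and 1 lower at an unadjusted p under 0.05. Without AKO 3 the median was 0.12. Beside Tfrc, Steap3, the endosomal ferrireductase that works with it, measured 27.4, 35.9 and 30.5 CPM in the controls and 40.1, 39.6 and 43.1 CPM in AKO (log2 0.39, adjusted p = 0.279). Ftl1, the ferritin light chain that stores iron, measured 87.2, 77.0 and 97.5 CPM against 67.6, 68.8 and 64.6 CPM (log2 −0.38, adjusted p = 0.264). Fth1, the ferritin heavy chain, overlapped at 2119, 2017 and 2364 CPM against 1958, 2112 and 1862 CPM. Among the 19 tested antioxidant genes (median −0.16), 4 were lower at an unadjusted p under 0.05. Without AKO 3 the median was −0.10 and 1 was lower, and without control 2 the number was 7. Hmox1, which frees iron from heme, measured 53.7, 35.05 and 137 CPM against 16.7, 22.5 and 19.9 CPM (log2 −1.93, adjusted p = 0.255). Mt1, a metal-binding metallothionein, measured 281, 101 and 756 CPM against 108, 81.2 and 90.8 CPM. Control 3 was the highest library for Ftl1, Hmox1 and Mt1.

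Skeletal muscle markers gave a large difference that followed libraries rather than groups. All 24 tested of 29 members had a positive log2 fold change with a median of 3.28, and 0 had an unadjusted p under 0.05. Without AKO 2 the median was −1.19, and without control 1 it was 8.87 with 19 members higher at that p. Myh4, a fast myosin heavy chain, measured 585, 3.91 and 0.126 CPM in the controls and 0, 5303 and 159 CPM in AKO. Myh7, the slow myosin heavy chain, had 606, 1 and 0 counts in the controls and 0, 4226 and 4 counts in AKO. Both were high in AKO 2 and control 1, while AKO 3 held the fast transcript but almost none of the slow one. Tnnc2, a fast-fibre troponin, had at most 1 count in any library, AKO 2 included, so a low count in this table need not mean that the transcript was absent. Brown fat function lists include a few muscle genes: Ckmt2, the sarcomeric mitochondrial creatine kinase, measured 11.7, 0 and 0.0629 CPM against 0, 106 and 4.15 CPM. A fit with the muscle marker level as a covariate called 8 genes, of which 7 were among the 11; Klf10, Rspo4, Gm8210 and Gm7049 were not.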

How the data were processed

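RNA of brown adipose tissue was isolated with TRIzol and sequenced from VAHTS Universal V6 libraries, per the labels' protocols. The authors deposited a raw count of reads for each gene and library, and FPKM values that were proportional to those counts within a gene and library. Bowtie2 2.2.3, HISAT2 2.1.0, HTSeq 0.6.0 and the build mm10 are named in the submitters' processing notes. Tool roles, annotation release and strandedness were not given in the sources used here. Symbols and coordinates came from GENCODE M21 (52403 of 52550 IDs matched, 147 did not).

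The test was that of edgeR 4.0.16, run in R 4.3.3 (TMM, filterByExpr with a minimum count of 10 and total of 15, quasi-likelihood F-test, Benjamini-Hochberg threshold 0.05) on the 6 brown fat libraries alone. Each log2 fold change is AKO minus control. Pairs of libraries differed beyond sampling noise (chi-square per degree of freedom 15.1 to 63.5), so each counted as 1 replicate. On simulated counts the test was checked to recover known changes. Since no molecular identifiers were counted, PCR copies may be included, and count intervals cover counting error only. A read count in a gene that overlaps another or has a near copy is uncertain.

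A rule named Mcu and its partners, every called gene, and 10 more uncalled genes in each direction. Those 10 ranked first by p among uncalled genes of at least 2 CPM with groups apart, predicted genes excluded. From each list described it named the most abundant gene and at most 4 more, ranked by p. Other genes lie outside this rule, and only some of them are said to be chosen after their values were seen. Fos, Per1, Bhlhe41 and Nfil3, for instance, lie outside it without being marked, and are to be read in the same way. The comparison, the 55 lists and this rule were chosen with earlier results of these data known. Alternatives were DESeq2 1.42.0, limma 3.58.1 voom, limma on log2 values of FPKM plus 1 or 0.1 (mean FPKM of at least 0.1), DESeq2's size factors, no filter, a mean of at least 2 CPM, a robust fit, a muscle covariate, a replicate block, leaving out each library in turn, control 1 and AKO 2 left out, and an adjusted p under 0.1. Inguinal fat libraries were not used here, and a few genes the rule would name are not reported here.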

Additional observations from a re-analysis of the deposited data

How the results depend on the processing

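The count of 11 called genes (7 higher, 4 lower) was 11 with DESeq2's size factors, 9 with limma voom, 12 and 14 with limma on log2 FPKM (pseudocounts of 1 and 0.1), 14 with a robust fit, 8 with the muscle covariate and 13 at an adjusted p under 0.1. It was 261 with DESeq2 (127 higher, 134 lower), 33 without the filter (17 and 16), 7 with a mean of at least 2 CPM (3 and 4) and 2 without control 1 and AKO 2 together (1 and 1). With 1 library left out it ran from 0 to 95 (higher 0 to 34, lower 0 to 61). It was 95 without control 2, 2 without control 1, 1 without AKO 1 or AKO 2, and 0 without AKO 3 or control 3, where edgeR gave 1393 and 1148 genes at an unadjusted p under 0.05. DESeq2 was not run on fewer libraries. The cause of these moves was not tested.

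With the replicate number as a block the count was 1 (1 higher, 0 lower), Kng1. Nothing in the labels ties same-numbered libraries together, and their deviations from the group means correlated at −0.724, −0.324 and 0.048. With 3 libraries per group, such correlations cannot decide whether the numbers pair the samples.

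The signs of some uncalled log2 differences changed. With a pseudocount of 0.1 they were −0.005 for Ogdh, −0.012 for Pparg, −0.022 for Cyb5r4 and −0.04 for Micu2, and with 1 they were −0.005, −0.012, −0.018 and −0.037. With the muscle covariate they were −0.26 for Myl3, 0.002 for Cdh5, −0.058 for Cyb5r4, 0.007 for Atp5b and −0.035 for Micu2. Klf9 gave 0.012 with limma voom, 0.009 with the block and 0.216 without control 1 and AKO 2 together, where Atp5b gave 0.003. With 1 library left out, ranges were −0.922 to 9.89 for Ckmt2, −1.552 to 3.964 for Myl3, −1.303 to 9.803 for Myh4, −0.334 to 0.007 for Adrb3, −0.051 to 0.211 for Per1 and −0.006 to 0.224 for Kng2. They were −0.002 to 0.105 for Cop1, −0.033 to 0.134 for Cd74, −0.078 to 0.121 for Ogdh, −0.138 to 0.02 for Cdh5 and −0.055 to 0.111 for Pparg. They were −0.054 to 0.017 for Tma7, −0.341 to 0.122 for Klf9, −0.065 to 0.102 for Cyb5r4, −0.066 to 0.021 for Atp5b and −0.061 to 0.067 for Micu2.

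Depth limits Kng1, Gm8210, Gm11868 and Gm7049, which had 7, 4, 5 and 3 counts summed over the controls.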

Other observations

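Several groups outside the comparisons above held values worth a second look. The genes of this section were chosen after their values were seen. Insig1, a sensor that holds back cholesterol and fatty acid synthesis, measured 124, 214 and 87.9 CPM in the controls and 321, 292 and 322 CPM in AKO. All AKO libraries lay above all controls (log2 1.13, edgeR adjusted p = 0.263). The gene passed edgeR's test without control 2 (adjusted p = 0.03), but not with any other library left out. Hmgcs1, an early enzyme of cholesterol synthesis, measured 126, 156 and 110 CPM against 161, 188 and 228 CPM, while the 22 tested genes of that pathway had a median log2 fold change of −0.01.

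Secreted factors and a receptor differed in sign. Nrg4, a neuregulin released by brown adipocytes, measured 85.2, 92.2 and 68.9 CPM in the controls and 113, 104 and 115 CPM in AKO (log2 0.43, edgeR adjusted p = 0.273). Metrnl, a meteorin-like cytokine, measured 13.0, 13.6 and 16.6 CPM against 8.82, 11.2 and 11.0 CPM (log2 −0.48, edgeR adjusted p = 0.303). Serpina3n, an acute phase protease inhibitor, was highest in control 3, at 42.7, 18.6 and 101 CPM against 25.2, 12.9 and 15.7 CPM. Lep, the leptin gene, was also highest in control 3, at 192, 96.3 and 410 CPM against 135, 86.0 and 119 CPM. Csf3r, a granulocyte receptor, measured 2.53, 3.19 and 2.01 CPM against 0.941, 0.977 and 0.867 CPM (log2 −1.47, edgeR adjusted p = 0.199).

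Some values belonged to single libraries. The inducible heat shock gene Hspa1a measured 12.1 and 17.4 CPM in AKO 1 and AKO 2 but 2.23 CPM in AKO 3, against 2.47, 3.31 and 2.71 CPM in the controls. Epithelial keratin transcripts appeared in control 2, where Krt8 had 68 counts and Krt18 had 43, against at most 4 counts in any other library.

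Slc2a3, the high-affinity glucose transporter GLUT3, measured 15.4, 3.79 and 15.7 CPM in the controls and 3.35, 3.32 and 3.03 CPM in AKO. It is a further gene for which controls 1 and 3 stood apart from the other 4 libraries, and what sets those 2 libraries apart was not tested.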
